A study of Mus musculus with 20 samples.

Results

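Prr12, Bahcc1, Tnrc18, Bcor, Mn1, Gse1, Rai1 and Yeats2 encode large nuclear proteins. Their mRNAs were the ones most strongly recovered, as a share of the library, in a ribosome pull-down from mouse preoptic area that carried no tag to pull on. This ranking covers genes with a mean log2 CPM (counts per M) of at least 3, with symbols of predicted genes left out. The 8 genes were chosen from 19269 gene symbols counted in 20 libraries, as the largest rises in the untagged immunoprecipitate (IP) over the supernatant left behind by it. Their values in that comparison are therefore given as a description, without a test. Measures outside the choice were the pull-down from a pool that did carry the tag, and the differences between ages and between sequencing sets.

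The study used translating ribosome affinity purification, in which ribosomal protein L10a fused to green fluorescent protein (GFP) is made only in cells with Cre recombinase, and ribosomes of those cells are then pulled down with their mRNA. Here Cre was driven by the promoter of Gnrh1, the gene of gonadotropin-releasing hormone (GnRH), whose neurons control reproduction. Preoptic punches came from female mice at day 21 (young) or day 70 to 150 (adult, in diestrus), with 3 to 4 mice pooled for each replicate. The negative-control pools, called untagged here, made no GFP fusion: young pools 1 and 2 were wild type, young pool 3 carried only the floxed L10a-GFP allele, and adult pools 1 and 2 carried only GnRH-Cre. Among the untagged pools, age thus cannot be told apart from genotype. Each of these 5 pools gave an IP and a supernatant library. A single adult pool carried both GnRH-Cre and floxed L10a-GFP (GFP-positive) and gave 1 IP and 1 supernatant. Depleted supernatants of 4 pools from an earlier series, 2 young and 2 adult, were each sequenced in a first and a second set, and every other library belonged to the second set. The labels do not say how the dams of those earlier pools were treated.

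All 8 proteins act in the nucleus on chromatin or transcription. Bahcc1 and its relative Tnrc18 carry a BAH domain that reads repressive methyl marks on histone H3. Bcor is a corepressor that binds Bcl6 and belongs to the variant Polycomb complex PRC1.1, Gse1 is found with the LSD1-CoREST histone demethylase complex, and Yeats2 is the histone-reading subunit of the ATAC acetyltransferase complex. Rai1 is a nucleosome-binding regulator whose human counterpart is lost in Smith-Magenis syndrome, Mn1 is a transcriptional coregulator first found at a translocation in meningioma, and Prr12 is a proline-rich nuclear protein of neurons. In a pull-down of this kind, RNA that comes down without the tag is the background against which tagged recovery is read.

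The 20 libraries held 27.7 to 50.5 M counts (M, mega). In counts per M (CPM), 3 counts corresponded to 0.0594 to 0.108, and every one of the 8 genes was above that in every library. Levels are given as CPM after trimmed-mean (TMM) scaling over the 20 libraries. A CPM is a share of its library, so ratios of IP to supernatant compare shares and not amounts of RNA. As a check of the tag, the GFP-positive IP held Gnrh1 at 1457 CPM, beside 7.85 to 33.5 CPM in the 5 untagged IP libraries, while Rpl10a, the gene of the tagged protein, was at 91.3 CPM beside 76.1 to 125 CPM. Of 14 preoptic markers all were in the table, and their sum was 168 to 769 CPM in the untagged supernatants. Summed markers of neurons, astrocytes, oligodendrocytes, microglia, vessels with blood, and meninges overlapped between untagged IP and supernatant, while 7 nuclear RNAs summed to 2108 to 2759 CPM in the IP and 4957 to 8487 CPM in the supernatant. Of these 7 RNAs, 2 rose and 2 fell in edgeR, where 15.8% of all genes tested rose and 16.2% fell. Their median log2 ratio was 0.63, so the lower sum does not describe each RNA of the list. No marker was at 0 throughout the untagged IP. The part of these differences in the values below was not tested. Adult untagged IP 2 held the highest meningeal and oligodendrocyte sums of the IP libraries, 3350 and 7679 CPM, and it was also the pool with the lowest recovery of 7 of the 8 genes.

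The 8 transcripts were long, and several were rich in repeats. In the GENCODE M21 annotation of mm10, the longest annotated coding transcripts ran from 6112 nucleotides (Yeats2) to 10726 (Bahcc1), with coding lengths from 3669 (Gse1) to 8019 (Tnrc18). The transcripts of Tnrc18 and Prr12 have no annotated 5′ UTR, and that of Tnrc18 no annotated start codon, so their transcript lengths are lower bounds. Windows of 60 nucleotides are shown for the runs that give some of these genes their names. Tnrc18 (trinucleotide-repeat containing) held an unbroken run of 8 CAG triplets, outside the annotated codon frame, and Mn1 one of 6 in frame; Tcf20, a relative of Rai1, held 7. Capitals mark the longest CAG run in each sense-strand window:
Tnrc18: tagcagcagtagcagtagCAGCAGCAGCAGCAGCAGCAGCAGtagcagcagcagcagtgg
Mn1: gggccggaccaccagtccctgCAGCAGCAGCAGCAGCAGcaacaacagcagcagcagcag
Tcf20: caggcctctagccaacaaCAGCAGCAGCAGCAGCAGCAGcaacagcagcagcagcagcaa
A run of 6 or more CAG triplets, searched on the coding strand only, was present in 136 of 17325 coding sequences (0.785%).

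Codons of the form CCN, which specify proline, made up 8.24% of codons in Yeats2 and 17.6% in Prr12, the range of the 8, against a median of 5.55% over 15230 coding genes tested. Bcor and its paralog Bcorl1 are shown beside Prr12 and Gse1 because both carry such codons and yet differed in recovery, as described further on. Capitals mark CCN codons in the 20-codon window that holds the most of them, 17 in Prr12, 10 in Gse1, 6 in Bcor and 9 in Bcorl1:
Prr12: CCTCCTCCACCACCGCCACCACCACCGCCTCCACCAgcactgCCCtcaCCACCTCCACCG
Gse1: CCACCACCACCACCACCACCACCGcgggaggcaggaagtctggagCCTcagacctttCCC
Bcor: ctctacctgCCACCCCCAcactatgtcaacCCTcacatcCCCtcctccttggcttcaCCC
Bcorl1: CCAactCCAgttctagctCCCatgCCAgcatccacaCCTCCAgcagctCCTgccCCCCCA

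The BAH-domain pair showed the pattern common to the 8. Tnrc18 (chromosome 5, 142724661 to 142817662, minus strand) stood at 1498, 2335 and 1647 CPM in the young untagged IP libraries and at 1286 and 1036 CPM in the adult ones. In the supernatants of the same pools it stood at 20.9, 15.8 and 18.0 CPM (young) and 15.3 and 18.8 CPM (adult). The lowest IP library was thus more than an order of magnitude above the highest supernatant, and over all 14 supernatants, earlier pools included, Tnrc18 ranged from 10.6 to 26.2 CPM. Bahcc1 (chromosome 11, 120232947 to 120292296, plus strand) was less abundant in both fractions. Its IP levels were 371, 495 and 365 CPM in young pools and 538.9 and 526.3 CPM in adult pools, against supernatant levels of 4.73, 4.53, 3.81, 4.30 and 5.77 CPM in the same order. Pool by pool, IP over supernatant was 55.2-fold to 148-fold for Tnrc18 (median 84.2) and 78.5-fold to 125-fold for Bahcc1 (median 95.6), a spread of 0.52 and 0.25 (SD of log2 ratios, n = 5).

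The corepressor Bcor and the LSD1-CoREST partner Gse1 were recovered in all pools. Bcor (chromosome X, 12036740 to 12160355, minus strand) stood at 550, 549 and 403 CPM in young and 488 and 299.5 CPM in adult untagged IP. Its supernatants held 4.33, 3.70, 4.15, 4.86 and 4.98 CPM in the same order, a range of 3.70 to 9.65 CPM over all 14 supernatants. The groups did not overlap. Gse1 (chromosome 8, 120228456 to 120581390, plus strand) stood at 1324, 1559 and 1066 CPM in young and 950 and 835 CPM in adult IP, against 25.96, 16.2, 19.6, 17.3 and 24.1 CPM in the supernatants. Exons of Gse1 share 2758 bases with Gins2 on the opposite strand, and with the strand setting of the counting not given, reads there could not be assigned; Gins2 itself was counted at 25.4 CPM in the untagged IP and 3.11 CPM in the supernatant (means, n = 5). Recovery ranged from 60.2-fold to 148-fold for Bcor and from 34.6-fold to 96.5-fold for Gse1.

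By its mean over the 5 untagged IP libraries, Mn1 was the most abundant of the 8, also per length. In adult untagged IP 2, Prr12 stood slightly higher, at 1083 against 1073 CPM. Mn1 (chromosome 5, 111417362 to 111457033, plus strand), with only 2 exons, stood at 1896, 2715 and 1998 CPM in young and 1915 and 1073 CPM in adult untagged IP. Supernatants of the same pools held 38.2, 31.7, 36.6, 32.4 and 34.1 CPM. The 14 supernatants together stayed between 31.6 and 50.2 CPM, with no overlap with the IP. Per kilobase of transcript, the mean level in untagged IP was 280 CPM for Mn1, 191 for Prr12, 167 for Tnrc18, 161 for Gse1, 132 for Rai1, 66.0 for Bcor, 51.7 for Yeats2 and 42.8 for Bahcc1; the values for Prr12 and Tnrc18 are upper bounds because their transcripts may be longer than annotated. In the supernatant the same 8 genes ran from 0.431 (Bahcc1) to 5.04 CPM per kilobase (Mn1).

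Prr12, Rai1 and Yeats2 completed the set. Prr12 (chromosome 7, 45027563 to 45052881, minus strand) stood at 1631, 1386 and 1175 CPM in young and 1416 and 1083 CPM in adult untagged IP, against 12.7, 12.5, 10.25, 9.67 and 16.8 CPM in the supernatants. It had the largest fitted ratio of the 8 and a pool range of 64.4-fold to 146-fold. Rai1 (chromosome 11, 60105013 to 60199197, plus strand) stood at 1092, 1068 and 872 CPM in young IP, at 1264 and 572 CPM in adult IP, and at 21.7, 17.5, 17.8, 19.6 and 21.2 CPM in the supernatants. Its adult IP pair differed more than any young pair, and 109 exon bases are shared with Srebf1 on the other strand. Yeats2 (chromosome 16, 20141063 to 20232573, plus strand) was the lowest of the 8 in counts in the IP, at 339, 427 and 264.5 CPM in young and 276 and 272.5 CPM in adult pools, and held 8.83, 7.34, 2.99, 7.82 and 9.08 CPM in the supernatants. The lowest pool ratios were 27.0-fold for Rai1 and 30.0-fold for Yeats2, and the highest 64.6-fold and 88.5-fold.

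**Figure D1:**
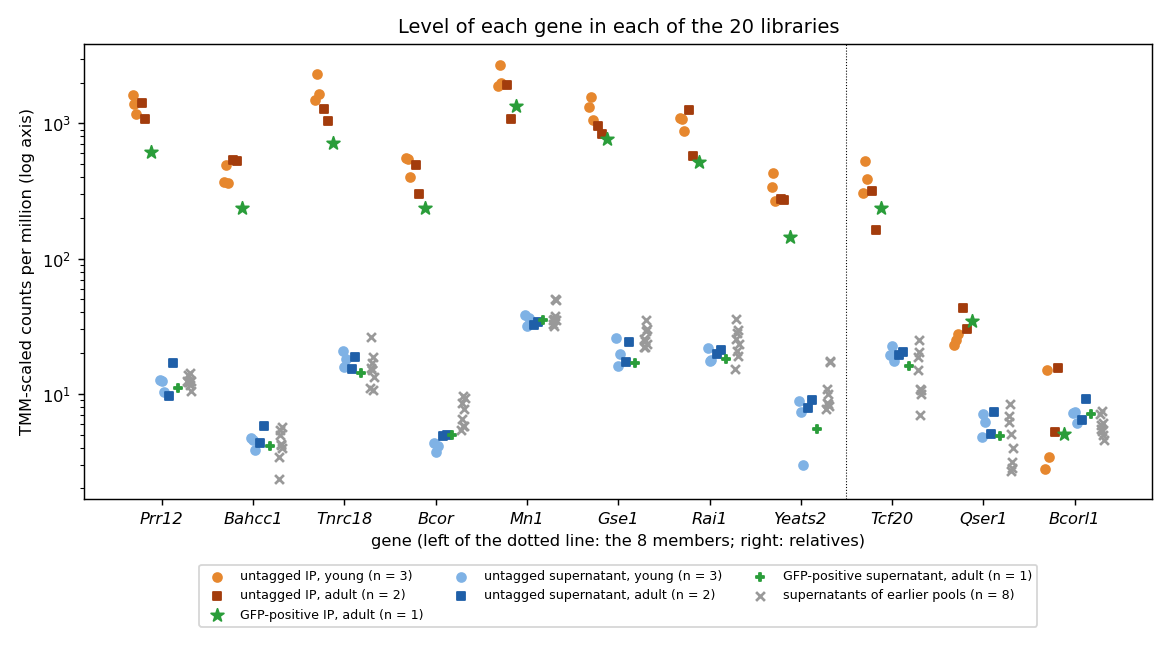
Level of each gene in each of the 20 libraries, in TMM-scaled CPM on a log axis, for the 8 genes and 3 relatives; each mark is 1 library and colours give fraction, tag and age. For the 8 genes every untagged IP library lies above all 14 supernatants, and the GFP-positive IP (stars) lies below all 5 untagged IP libraries for 7 of them, while Bcorl1 overlaps between fractions.

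In the fit of the 10 untagged libraries, the log2 ratios (± SE) were 6.70 ± 0.22 for Prr12, 6.62 ± 0.17 for Bahcc1, 6.61 ± 0.20 for Bcor, 6.34 ± 0.19 for Tnrc18, 5.70 ± 0.21 for Mn1, 5.69 ± 0.20 for Gse1, 5.59 ± 0.24 for Rai1 and 5.36 ± 0.30 for Yeats2. Neighbours in this order differed by less than their SE within the first 3 and from Mn1 through Gse1 and Rai1 to Yeats2. The limit of the choice fell between Yeats2, at a mean of 316 against 7.21 CPM, and the next genes Gli2 (5.01, at 34.2 against 0.980 CPM) and Nup98 (4.91, at 155 against 4.86 CPM). Only genes with a mean log2 CPM of at least 3 were ranked, and symbols of predicted genes were left out. Stra8, named after its value was seen, had a fitted log2 ratio of 6.07 at a mean log2 CPM of -2.64. All 8 genes passed the filter on low counts and the test, as the choice required, where 15.8% of the 16361 genes tested rose and 16.2% fell. With total counts in place of TMM scaling, 3116 of 5199 called genes rose, against 2593 of 5246. Together the 8 genes took 0.597 to 1.11% of all counts in the untagged IP libraries and 0.0104 to 0.0158% in the supernatants.

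**Figure D2:**
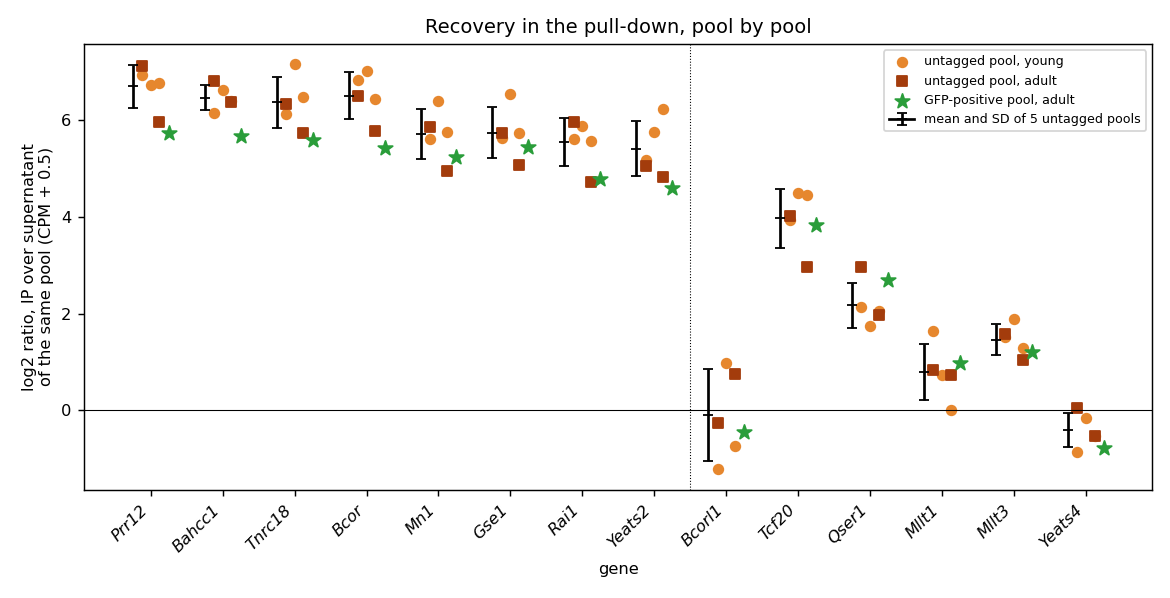
Log2 ratio of IP to supernatant of the same pool (CPM + 0.5) for the 8 genes and 6 relatives; marks are single pools and the bar is the mean and SD of the 5 untagged pools. The 8 genes stay above 4.5 in every pool, Tcf20 lies between 2.97 and 4.50, and Bcorl1 falls on both sides of 0.

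The GFP-positive pool, which the choice did not use, also recovered the 8 mRNAs. Prr12 stood at 618 CPM in its IP and 10.98 CPM in its supernatant, a 56.3-fold ratio. Mn1 stood at 1336 against 35.0 CPM, a 38.2-fold ratio, and Tnrc18 at 720 against 14.3 CPM, a 50.3-fold ratio. For the others the ratios were 57.8-fold for Bahcc1, 47.2-fold for Bcor, 45.1-fold for Gse1, 28.5-fold for Rai1 and 26.3-fold for Yeats2. All 8 were thus past 4-fold, a ratio reached by 233 of 14485 genes with at least 1 CPM (1.61%). Ranked by this ratio, the 8 genes took the first and the third to ninth places, and Gnrh1, the gene of the tagged neurons, the second. With 1 library in each fraction these ratios carry no test.

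In the GFP-positive IP each of the 8 genes made up less of the library than on average in the untagged IP. Prr12, Bahcc1, Tnrc18, Bcor, Gse1, Rai1 and Yeats2 lay below all 5 untagged IP libraries, as did 17.9% of 14208 genes. Among 192 other genes that rose at least 4-fold in the untagged fit, 96 (50.0%) did so. Mn1 (1336 CPM) lay inside the untagged range of 1073 to 2715 CPM. Levels were 45.3% (Yeats2) to 69.6% (Mn1) of the mean of all 5 untagged IP libraries. Against the mean of the 2 adult ones, which match the GFP-positive pool in age, they were 44.5% (Bahcc1) to 89.4% (Mn1), with Gse1 at 85.9%. As a share of all counts, the 8 genes took 0.464% of the GFP-positive IP. The log2 ratio to the pool's own supernatant was lower than the untagged mean for all 8, with a median difference of -0.78 and a range from -1.09 (Bcor) to -0.30 (Gse1). Against single pools it was below all 5 untagged ratios for 5 of the 8, while Mn1, Gse1 and Rai1 lay inside the untagged range. Among 126 other genes with an untagged ratio of at least 4-fold the median difference was -0.44, and 112 lay below 0; over all 10590 genes compared it was 0.01. The choice rested on high ratios in the untagged pools and only 1 pool carried the tag, so the choice and the tag cannot be told apart as sources of this difference.

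**Figure D3:**
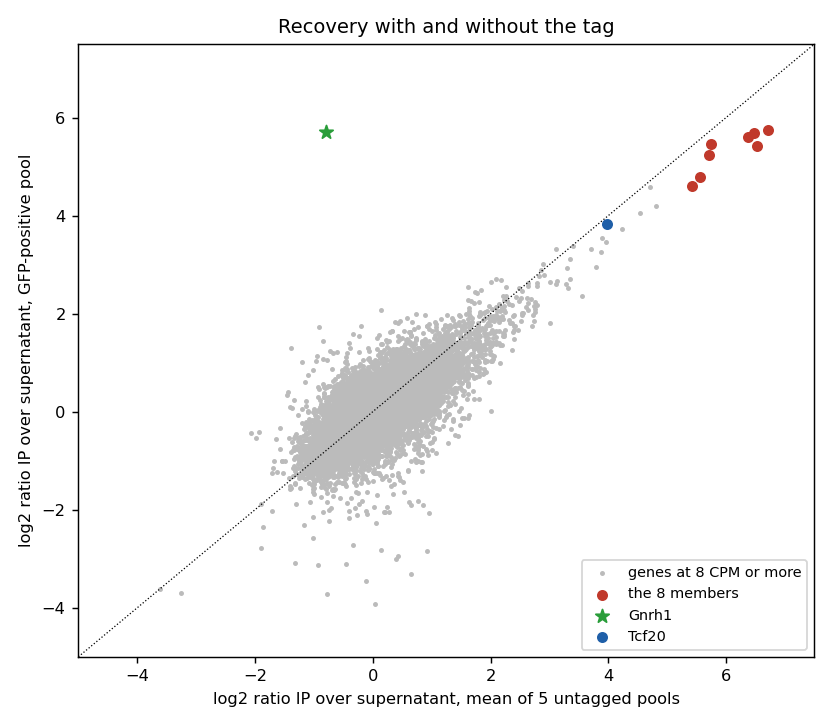
Log2 ratio of IP to supernatant in the GFP-positive pool (vertical axis) against the mean of the 5 untagged pools (horizontal axis); each dot is a gene with a mean of at least 8 CPM and the dotted line marks equal ratios. The 8 genes lie at the upper right and below the line, Tcf20 lies near it, and Gnrh1 stands at 5.71 on the vertical axis and -0.80 on the horizontal one.

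Family relatives did not share the recovery evenly. Tcf20, the paralog of Rai1, stood at 306, 524, 391, 319 and 161.5 CPM in the untagged IP (young 1 to 3, then adult 1 and 2) and at 17.4 to 22.7 CPM in the supernatants. It rose by a log2 ratio of 3.95 (SE 0.24, adjusted p = 3.07e-06, edgeR's quasi-likelihood test with Benjamini-Hochberg adjustment), and its ratio was the 15th in the GFP-positive pool, at 14.7-fold. Qser1, related to Prr12, rose by 2.28 (SE 0.22, adjusted p = 5.22e-05 in the same edgeR fit), from 6.11 ± 1.15 to 29.7 ± 7.89 CPM (SD, n = 5). Of the relatives of Yeats2 that share its YEATS domain, Mllt3 rose by 1.44 (adjusted p = 5.96e-05) and Mllt1 by 0.83 (adjusted p = 0.0325), both in edgeR. The call for Mllt1 was lost without adult IP 1 and without any 1 of the 5 supernatants, where adjusted p ran from 0.0551 to 0.14 in edgeR. Yeats4, the smallest of them, did not pass (-0.41, adjusted p = 0.0823 in edgeR), except without young IP 2 (-0.52, adjusted p = 0.015 in edgeR).

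Bcorl1, the paralog of Bcor, stood at 2.78, 15.0, 3.39, 5.196 and 15.6 CPM in the untagged IP and at 7.20, 7.34, 6.07, 6.396 and 9.11 CPM in the supernatants. The groups overlapped, and the log2 ratio of 0.20 did not pass (SE 0.53, adjusted p = 0.824 in edgeR); it turned to -0.12 with the pool as a block, to -0.29 without adult IP 2 and to -0.40 without young IP 2. In the GFP-positive pool Bcorl1 stood at 5.05 CPM in the IP against 7.12 CPM in the supernatant. Bcor and Bcorl1 had supernatant levels of the same order, 4.402 and 7.22 CPM, similar transcript lengths (6941 and 7446 nucleotides) and coding lengths (5277 and 5343), and 15 annotated exons each. Coding GC content was 53.5% for Bcor and 56.0% for Bcorl1, and CCN codons made up 9.15% and 12.1%. In the windows printed above, picked for the most such codons, CCN made up 9 of 20 codons in Bcorl1 and 6 of 20 in Bcor. The same pull-down thus held 458 ± 107 CPM of Bcor and 8.40 ± 6.37 CPM of Bcorl1 (SD, n = 5).

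Recovery of the 8 mRNAs did not extend evenly to the partners of their proteins. The counts that follow stand beside 15.8% of all genes tested that rose and 16.2% that fell. Of 8 PRC1.1 genes other than the Bcor pair, 2 rose and 3 fell, from Kdm2b, its histone demethylase (0.83, adjusted p = 0.00267 in edgeR), to Skp1a (-0.84, adjusted p = 2.15e-05 in edgeR). None of the 10 ATAC genes passed the test in either direction, and their values ran from 0.23 for Csrp2bp to -0.49 for Wdr5, which passed only without young IP 2 (-0.65, adjusted p = 0.0147 in edgeR). The 11 LSD1-CoREST genes gave 3 that rose and 2 that fell. Its scaffold Rcor1 went from 20.4 to 63.5 CPM (1.61, adjusted p = 2.86e-05 in edgeR), and Hmg20b fell by 0.93 on the log2 scale (adjusted p = 0.0108 in edgeR). Of 17 genes of the BAF remodeller, with which Mn1 acts, 6 rose and 1 fell. Its large subunit Arid1b went from 26.5 to 174 CPM (2.70, adjusted p = 3.11e-06 in edgeR), and Smarcd3 fell by 0.67 on the log2 scale (adjusted p = 0.00529 in edgeR). Among 8 genes of Bcl6 and its other corepressors 3 rose and 1 fell, the latter Hdac3 at -0.40 (adjusted p = 0.0149 in edgeR). The call for Hdac3 was lost under total-count scaling, without adult IP 1 and without adult supernatant 1 (adjusted p = 0.0692, 0.0559 and 0.062 in edgeR). List medians were -0.26 (PRC1.1), -0.13 (ATAC), 0.00 (LSD1-CoREST), 0.06 (BAF) and 0.34 (Bcl6 corepressors), beside -0.03 over all genes tested.

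Among other genes with a mean of at least 8 CPM, predicted symbols left out, 6 had levels over the 20 libraries most like the mean of the 8. They were Jmjd1c (Pearson r = 0.992), Nup98 (0.992), Auts2 (0.991), Arid3a (0.989), Ylpm1 (0.988) and Baz2b (0.986). The 20 points share the step between 6 IP and 14 supernatant libraries. That step was smaller than in the 8, as follows from choosing the 8 for the largest steps. Ylpm1 stood at 733 against 26.1 CPM in the untagged pools and Jmjd1c at 398 against 20.6 CPM, while Auts2 stood at 181 against 42.2 CPM. All 6 were also higher in the GFP-positive IP than in its supernatant, for example 537 against 22.1 CPM for Ylpm1.

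The 8 genes had long coding sequences, and most other genes of such length had far smaller ratios. The 8 were chosen for the largest ratios, so that difference follows in part from the choice. Whether length plays a part in recovery was not tested. Coding length was in the top decile of 15230 coding genes tested for all 8, against a median of 1368 nucleotides, and transcript length for 7 of 8. Across genes, which are not independent, the rank correlation with the untagged log2 ratio was 0.456 for coding length, 0.492 for transcript length and 0.012 for coding GC content. Among 1137 other genes within the coding range of the 8, the median log2 ratio was 0.76. Of these, 549 rose (48.3%, against 16.5% of all coding genes), 49 reached 4-fold and 1 reached 32-fold. Over all coding genes 10 reached 32-fold, the 8 included. Most of the 8 were also GC-rich: coding GC content ran from 50.98% (Yeats2) to 64.7% (Mn1), in the top decile for 6 of 8. Taking coding length and coding GC within the range of the 8 left 653 other genes with a median of 0.77, and 47.0% of them rose. Coding GC of at least 60% without regard to length gave 2029 other genes with a median of -0.03.

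Of the other features, the share of CCN codons was above the median for all 8 and in the top decile for 6. Of 129 other genes with CCN codons at 10% or more and a coding length in the same range, 56.6% rose, with a median of 1.05 and 15 past 4-fold. Of 127 other genes with a run of 6 or more CAG triplets, 45.7% rose, with a median of 0.60. Exon counts varied from 2 in Mn1 to 31 in Yeats2, and the longest exon took from 16.4% (Tnrc18) to 75.2% (Rai1) of the transcript. The 3′ UTR was in the top decile for none of the 8.

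**Figure D4:**
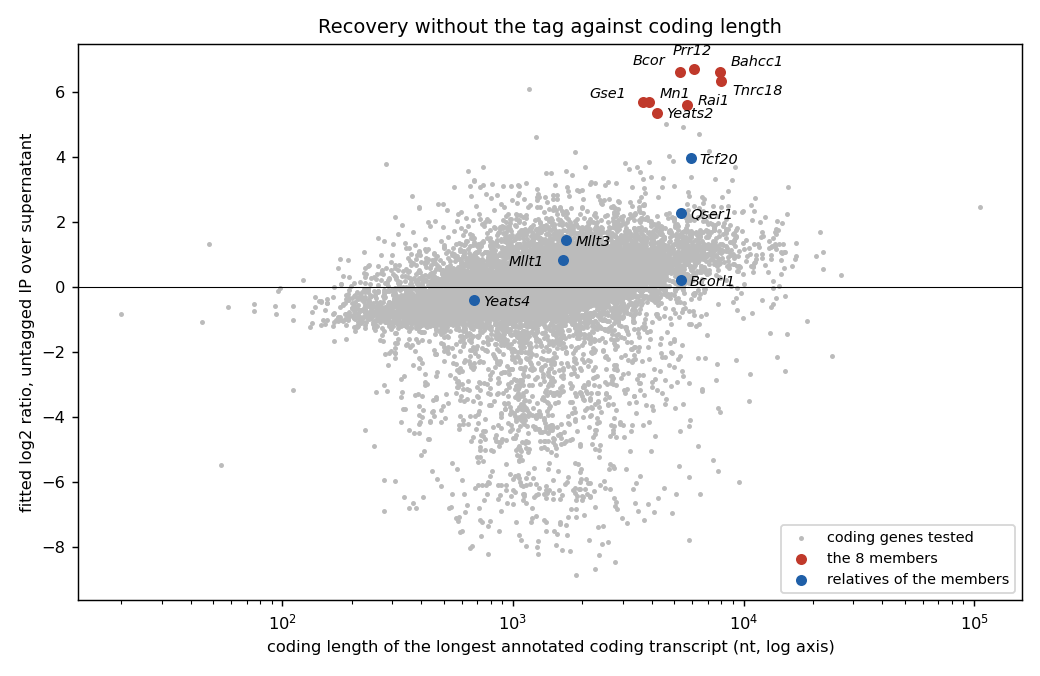
Fitted log2 ratio of untagged IP to supernatant against coding length (log axis) for 15230 coding genes, with the 8 genes in red and 6 relatives in blue. The 8 genes stand above 5.3 at coding lengths of 3669 to 8019 nucleotides, where 1137 other genes have a median of 0.76; the isolated grey dot near 6.07 is Stra8, which fell under the level limit.

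Within the untagged IP, age differences among the 8 ran from -0.63 to 0.40 on the log2 scale. Tnrc18 stood at 1827 ± 446 CPM in young (SD, n = 3) and 1161 ± 177 CPM in adult IP (SD, n = 2), and Gse1 at 1316 ± 246 and 892 ± 81.4 CPM. For both genes the age groups did not overlap, with adult lower. Bahcc1 also did not overlap but was higher in adults, at 533 ± 8.90 against 410 ± 73.6 CPM. Such age groups without overlap were found for 3 of the 8 and for 24.2% of all 16361 genes tested. None of the 8 passed edgeR's quasi-likelihood test after adjustment, where 0.727% of all genes did (119 of 16361; 0.324% higher and 0.403% lower in adults), and 4 of the 8 had an unadjusted p under 0.05, as did 17.7% of all genes. The log2 differences (adult over young) were -0.63 for Tnrc18 (SE 0.21, adjusted p = 0.164 in edgeR), -0.54 for Gse1 (SE 0.23), -0.54 for Mn1 (SE 0.24) and 0.40 for Bahcc1 (SE 0.18, adjusted p = 0.27 in edgeR). In all, 7 of 8 were below 0, with a median of -0.31 beside 0.00 over all genes tested. DESeq2 called 1 of the 8, Tnrc18 (adjusted p = 0.0431), and 8.96% of all genes, so this share is near the background. Without adult IP 2, Prr12 turned from -0.14 to 0.05 and Rai1 from -0.11 to 0.36. In bulk samples fewer cells of a type and less RNA per cell cannot be told apart, and age here goes with genotype. Summed meningeal markers were 245 to 937 CPM in young and 1568 to 3350 CPM in adult untagged IP, and their part in these values was not tested.

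The difference in recovery between ages was not past the threshold for any of the 8 or for any gene in edgeR (0% of 16361 genes, 1068 at an unadjusted p under 0.05; DESeq2 called 151, or 0.831%, none of them among the 8). The adult minus young difference of the log2 ratio was below 0 for 7 of 8, from -0.71 (Yeats2, SE 0.49) to 0.20 (Bahcc1, SE 0.26), with a median of -0.49. Single libraries turned 3 of them: Bahcc1 moved to -0.02 without adult supernatant 1, Prr12 moved to 0.16 without adult supernatant 2, and Rai1 moved to 0.255 without adult IP 2.

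In the supernatants, which sample the preoptic tissue, the 8 genes stood below their IP levels at both ages. Over 5 young and 5 adult pools of the second sequencing set, Bahcc1 stood at 3.77 ± 0.95 and 4.90 ± 0.70 CPM, Rai1 at 19.5 ± 4.05 and 24.6 ± 7.34 CPM, and Mn1 at 34.9 ± 2.69 and 33.8 ± 1.82 CPM (SD, n = 5). None of the 8 passed edgeR's test, with pool origin in the model, where 9.42% of 15938 genes did (4.2% higher and 5.22% lower in adults). Log2 differences ran from -0.05 (Gse1) to 0.40 (Bahcc1, SE 0.20, adjusted p = 0.25 in edgeR), 6 above and 2 below 0. Under total-count scaling all 8 were at or above 0, and 947 of 1539 called genes rose in place of 670 of 1502. Among the relatives Mllt3 rose with age (0.32, SE 0.09, adjusted p = 0.0433 in edgeR).

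**Figure D5:**
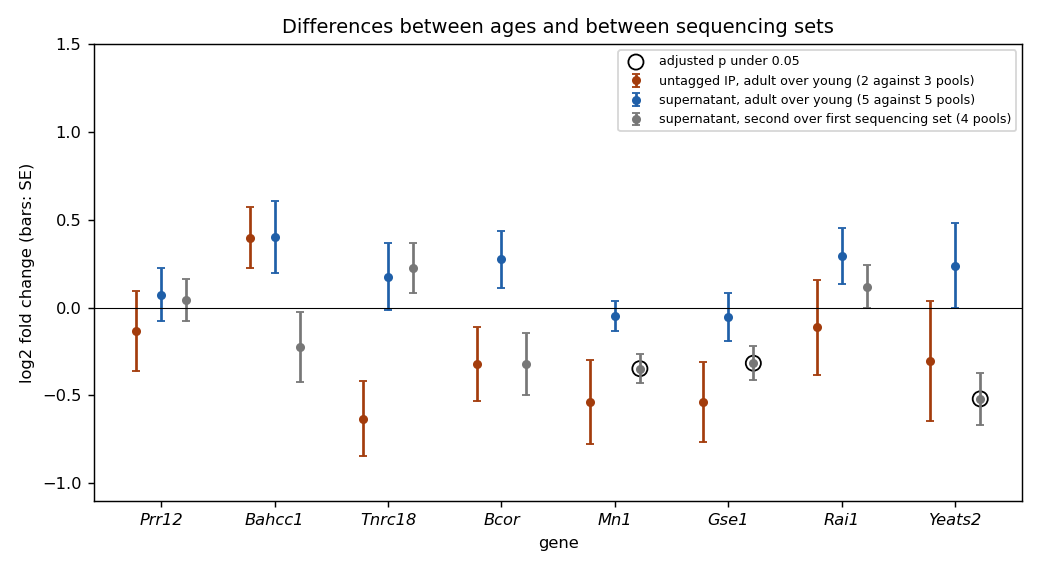
Log2 fold change with its SE for each of the 8 genes in 3 comparisons: adult over young in untagged IP (2 against 3 pools), adult over young in supernatant (5 against 5 pools), and second over first sequencing set in supernatants of the same 4 pools. Rings mark an adjusted p under 0.05 in edgeR, present for Mn1, Gse1 and Yeats2 in the sequencing-set comparison only.

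Repeat sequencing of the same supernatants moved 3 of the 8 past the threshold, a count near the background of 31.1% of all genes tested. Mn1 stood at 50.2, 37.7, 35.4 and 49.4 CPM in the first set (young pools 1 and 2, adult pools 3 and 4) and at 35.2, 32.8, 31.6 and 36.0 CPM in the second, lower in 4 of 4 pools. Yeats2 stood at 9.96, 8.14, 17.2 and 17.4 CPM and then at 7.72, 8.50, 10.9 and 8.43 CPM, lower in 3 of 4 pools. With the pool as a block in edgeR, Mn1 fell by 0.35 on the log2 scale (SE 0.08, adjusted p = 0.00383), Gse1 by 0.32 (SE 0.10, adjusted p = 0.0211) and Yeats2 by 0.52 (SE 0.15, adjusted p = 0.0151), where 31.1% of 16117 genes changed (15% up and 16.1% down). Without the block none of the 8 passed. Leaving out 1 pool at a time kept Mn1 below the threshold of 0.05 each time; Gse1 was lost without young pool 2 or adult pool 3 (adjusted p = 0.125 and 0.0915 in edgeR) and Yeats2 without adult pool 3 or 4 (adjusted p = 0.0643 and 0.147 in edgeR, the latter at -0.34). Without young pool 1, Tnrc18 (0.45, adjusted p = 0.00367 in edgeR) and Rai1 (0.31, adjusted p = 0.013 in edgeR) passed as well. Tcf20 rose between sets (1.03, SE 0.14, adjusted p = 4.95e-05 in edgeR), from 9.60 ± 1.75 to 19.8 ± 4.05 CPM (SD, n = 4). Both fractions of every untagged pool were sequenced in the second set.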

How the data were processed

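Polyadenylated RNA of preoptic IP and supernatant fractions was made into libraries with the SMARTer kit (version 4, ultra low input), per the labels' protocols. The deposited table holds the authors' whole-number read counts for 19269 gene symbols, unscaled. TopHat2 2.0.13, Bowtie2 2.2.1, HTSeq 0.6.1 and the build mm10 are named in the submitters' processing notes. Annotation, strand setting and treatment of duplicate reads are not given in the sources used here; the 3-count values cover counting error only. Depth was 27.7 to 50.5 M counts per library.

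Groups followed the sample titles and genotypes. The series text names the GFP-positive supernatant in 2 ways, and the descriptions of the adult untagged supernatants number the replicates differently from the titles; titles were followed. Replicates are separate pools. Tests used the quasi-likelihood method of edgeR 4.0.16 in R 4.3.3 (TMM, filterByExpr with minimum count 10, Benjamini-Hochberg over all genes tested, threshold 0.05); SE is the log2 fold change over the root of F. One fit held the 10 untagged libraries (4 group means), a second the 10 second-set supernatants (age and pool origin), and the last the repeated supernatants (pool and set). DESeq2 1.42.0, other scalings, no filter, and leaving out each library were alternatives. Ratios by pool used CPM + 0.5. Same-numbered IP and supernatant deviations from their group means correlated at 0.292, 0.195 and 0.453 (young) and 0.208 (adult), and the title numbers were taken to pair them; the fit with the pool as a block is an alternative.

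The 8 genes and all lists were chosen with earlier results of these data known. Besides the 8, the genes named were the listed relatives, the highest and lowest gene of each partner list (1 is not reported here), the 2 genes just outside the choice (among called genes without overlap, at a mean log2 CPM of 3 or more), the 6 genes with the most similar levels, Gnrh1 and Rpl10a as tag checks, and Stra8. Symbols of predicted or clone-named genes were left out when the 2 genes just outside and the 6 similar genes were picked. The 6 also had a mean of at least 8 CPM. Transcript features came from GENCODE M21, which matched 18960 symbols (98.4%).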

Additional observations from a re-analysis of the deposited data

Results flagged for a closer look

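In 3 of 40 sets of 4 to 10 supernatant or IP libraries tested for the 8 genes, 1 library stood far from the others, where chance flags about 1 in 20. All 3 concern the supernatant of young untagged pool 3, the pool that carried floxed L10a-GFP alone. Yeats2 stood at 2.99 CPM there, and the next lowest of the 5 untagged supernatants was 7.34 CPM. On the log2 scale (CPM + 0.5), on which all 3 gaps are given, the gap took 0.802 of the range. Over the 5 young supernatants of the second sequencing set the same library, at 2.99 CPM, left a gap of 0.823 of the range. Prr12 stood at 10.25 CPM in that library against a next lowest value of 12.2 CPM over the same 5 supernatants, a gap of 0.822 of the range. Over all 14 supernatants, however, Prr12 ranged from 9.67 to 16.8 CPM. The 3 flags share the library of young untagged pool 3, and the sets for Yeats2 overlap, so the flags are not independent. The pool ratio of Yeats2 was highest in that pool, at 88.5-fold, while its IP level there, 264.5 CPM, was the lowest of the 5 untagged IP libraries.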

How the results depend on the processing

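The untagged log2 ratios of the 8 genes kept their direction under every scaling, filter, tool, block and left-out library, from 5.19 (Yeats2) to 6.90 (Prr12) with 1 library left out. Counts of called genes moved more: the age difference within the untagged IP gave 1497 genes with DESeq2 against 119, age by fraction 151 with DESeq2 against 0, age in the supernatant 2276 with DESeq2 and 256 with untagged pools only against 1502, and the sequencing set 1155 with no replicate block against 5008. The replicate block gave 4970 calls for IP against supernatant in place of 5246, changed no call among the relatives and partner genes named, and left age by fraction without a call among the 8. With 1 library or pool left out, calls ran from 3571 to 5725 for IP against supernatant, 0 to 67 for age by fraction, 723 to 1706 for age in the supernatant, 0 to 458 for age within the IP and 3651 to 4856 for the sequencing set. Directions that turned were those of small values. Bcorl1 was at -0.117 with the replicate block and from -0.403 to 0.492 with 1 library left out. For age in the supernatant, Gse1 was at 0.024 (untagged pools only), 0.0 (total counts) and -0.149 to 0.055 (1 library left out), Mn1 at 0.004 (total counts), and Tnrc18 at -0.085 (untagged pools only). Ranges with 1 library left out were -0.003 to 0.276 for Tnrc18 and -0.076 to 0.16 for Prr12 there; -0.356 to 0.054 for Prr12 and -0.812 to 0.357 for Rai1 within the IP; -0.023 to 0.428 for Bahcc1, -0.664 to 0.163 for Prr12 and -0.914 to 0.255 for Rai1 for age by fraction; and -0.068 to 0.129 for Prr12 between sequencing sets. The cause was not tested. Where 1 library was left in an arm, it was assumed to vary like the other groups. With 1 GFP-positive pool there is no replicate check of tagged recovery.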
